A study of Mus musculus with 24 samples.

Results

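A set of 10 genes of purinergic and adenosine signalling was followed in the hippocampal CA1 region of mice after pilocarpine-induced status epilepticus (SE), a prolonged seizure after which epilepsy develops in this model. They were chosen by name, by a rule that uses no measured value but with earlier results of these data known, out of 18647 genes in the count table, and each of them was among the 18153 genes with enough counts to be tested. The set holds the ATP-gated ion channels P2rx4 and P2rx7, the nucleotide receptors P2ry1 and P2ry6, the surface enzymes Entpd1 (CD39) and Nt5e (CD73), the adenosine receptors Adora1 and Adora2a, and the adenosine-removing enzymes Adk and Ada. Bulk RNA sequencing of microdissected CA1 gave 24 libraries, 3 in each of 8 groups of C57Bl/6N mice aged at least 60 days. In 5 groups the mice had received scopolamine methyl nitrate (1 mg/kg) and pilocarpine (335 mg/kg), had gone through SE, had received diazepam (4 mg/kg) 40 min after its onset, and were taken 6, 12, 24, 36 or 72 h later. In 3 control groups (Ctr 12 h, Ctr 36 h and Ctr 72 h) saline replaced pilocarpine, and all groups share the scopolamine and the diazepam. Mice injected with pilocarpine that did not develop SE are not among these samples, so the drug and the seizure cannot be told apart. The labels do not say that the 3 libraries of a group come from separate animals, so p-values measure only the spread between these libraries, which may be technical.

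ATP and ADP that leave injured or active cells act on P2X channels and on P2Y receptors, which are coupled to G proteins. Ectonucleotidases at the cell surface then cut ATP and ADP to AMP and AMP to adenosine, and adenosine acts on its own receptors, of which A1 dampens excitatory transmission in the hippocampus and is the one best known as a brake on seizures. Adenosine is cleared by phosphorylation through adenosine kinase, an enzyme of astrocytes in the adult brain, or by deamination through adenosine deaminase, while microglia are known for P2X4, P2X7, P2Y6, P2Y12 and CD39.

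The genes lie on 9 chromosomes, given here in build GRCm39 with the identifiers of the deposited table. P2rx7 (ENSMUSG00000029468.18, chr5:122781942-122830400) and P2rx4 (ENSMUSG00000029470.16, chr5:122845541-122867803) are neighbours on the plus strand of chromosome 5. P2ry1 (ENSMUSG00000027765.7) is at chr3:60910159-60916403 on the plus strand and P2ry6 (ENSMUSG00000048779.6) at chr7:100585308-100624173 on the minus strand. Entpd1 (ENSMUSG00000048120.17) is at chr19:40600810-40731585 and Nt5e (ENSMUSG00000032420.9) at chr9:88209089-88254146, both on the plus strand. Adora1 (ENSMUSG00000042429.9) is at chr1:134126948-134163579 on the minus strand and Adora2a (ENSMUSG00000020178.7) at chr10:75152560-75170628 on the plus strand. Adk (ENSMUSG00000039197.11) is at chr14:21102618-21499916 on the plus strand and Ada (ENSMUSG00000017697.4) at chr2:163565705-163592159 on the minus strand. Exons of Adora1 overlap those of Mybph on the other strand over 3361 bases, and exons of Ada overlap those of Pkig on the other strand over 1069 bases. The library kit does not mark the strand, so reads in those stretches cannot be given to one gene of the pair.

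The sequences just before the annotated starts of 3 members are shown because P2rx7 and P2rx4 are neighbours that both passed the test 36 and 72 h after SE, and because Ada was the most strongly raised member 6 h after SE. They are RefSeq promoter entries of build GRCm38.p6 that were found once, letter for letter, in GRCm39 at the positions given, cut at the gene's start and written 5′ to 3′ on the gene's strand, with capitals marking a match to TGANTCA (AP-1, in P2rx7), TTCNNNGAA (STAT, in Ada) or GGGCGG (Sp and Klf factors, in both).
P2rx7, chr5:122781740-122781941, plus strand: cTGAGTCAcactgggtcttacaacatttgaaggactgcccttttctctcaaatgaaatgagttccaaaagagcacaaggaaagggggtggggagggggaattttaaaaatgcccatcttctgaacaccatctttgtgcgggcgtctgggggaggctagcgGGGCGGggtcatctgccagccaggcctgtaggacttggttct
P2rx4, chr5:122845357-122845540, plus strand: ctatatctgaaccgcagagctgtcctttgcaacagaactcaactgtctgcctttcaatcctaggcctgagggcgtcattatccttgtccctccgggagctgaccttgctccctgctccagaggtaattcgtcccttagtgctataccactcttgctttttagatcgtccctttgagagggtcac
Ada, chr2:163592160-163592409, minus strand: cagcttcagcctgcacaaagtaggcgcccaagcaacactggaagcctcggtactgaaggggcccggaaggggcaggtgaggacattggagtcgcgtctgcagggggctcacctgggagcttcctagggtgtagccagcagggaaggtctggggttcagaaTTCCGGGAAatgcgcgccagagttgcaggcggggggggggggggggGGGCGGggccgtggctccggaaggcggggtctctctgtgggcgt
Over windows of 250 bases before the start, on both strands, the AP-1 letters were present in 6.7% of 32851 promoters, the STAT letters in 7.0% and GGGCGG in 32.7%. Of 8 members with an entry, TGANTCA was found before P2rx7 and Adora1, TTCNNNGAA before Ada, and GAGGAA (PU.1 and other ETS factors, in 23.3% of promoters) before Entpd1. The P2rx4 window held none of these letters, nor TGACGTCA (CRE, 1.5%) or CACGTG (E-box, 6.0%). These matches are a description of the sequence and say nothing about binding.

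For the tissue label, 4 genes of CA1 pyramidal cells (Wfs1, Fibcd1, Pou3f1 and Mpped1) summed to 293 to 1407 CPM, and the lowest value was in SE 72 h. Listed genes of dentate granule cells (Prox1, Dsp, C1ql2 and Calb1) summed to 73.5 to 316 CPM, and those of striatal projection neurons to 42.5 to 169 CPM. Without a reference tissue these sums cannot test the label. Total counts ran from 2663936 to 30133731 per library, and the smallest 2 belonged to Ctr 72 h, replicate 3 with 2663936 and replicate 2 with 5793721. These 2 libraries also held reads of the fewest genes, 15999 in replicate 2 and 16486 in replicate 3, against 17832 to 18584 in the others. A set of 6 libraries stood apart by transcripts of sensory ganglion neurons (Prph, Isl1, Avil, Scn10a and Calca). The summed level of these 5 genes was 3.17 to 51.7 CPM (a gene's counts scaled to library size) in 18 libraries and over 100 CPM in Ctr 72 h replicate 2 (1278), SE 72 h replicate 1 (710.1), SE 36 h replicate 3 (621), SE 12 h replicate 1 (465), SE 72 h replicate 2 (373) and SE 6 h replicate 3 (239). Nt5e and Adk were higher in the library or libraries over 100 CPM than in the rest of their group in 5 of 5 groups, and P2ry1 in 4 of 5. Across the 24 libraries, which differ in depth and of which those of a group share their condition, the markers' summed level went with P2ry1 (Pearson r = 0.82, Spearman rho = 0.73 on the log2 scale), Nt5e (0.78 and 0.65) and Adk (0.66 and 0.47), but hardly with P2ry6 (−0.09 and 0.25). Results that rest on these libraries are given with and without them. Without the 6, SE 72 h holds 1 library, which is then assumed to vary like the other groups.

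Per kb of annotated exons, merged over all transcripts of a gene, Adora1 was the most abundant member in the 9 control libraries. Its median was 30.07 CPM per kb (range 27.2 to 49.8). The merged length can exceed that of any single transcript. Adk followed at 4.01, Entpd1 at 2.04, P2rx4 at 1.54 and P2rx7 at 1.13 CPM per kb. P2ry1 (0.589), P2ry6 (0.457), Adora2a (0.396), Nt5e (0.213) and Ada (0.187 CPM per kb) were low. The plot of the members by library shows the same values as CPM, the scale used for each gene from here on.

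**Figure D1:**
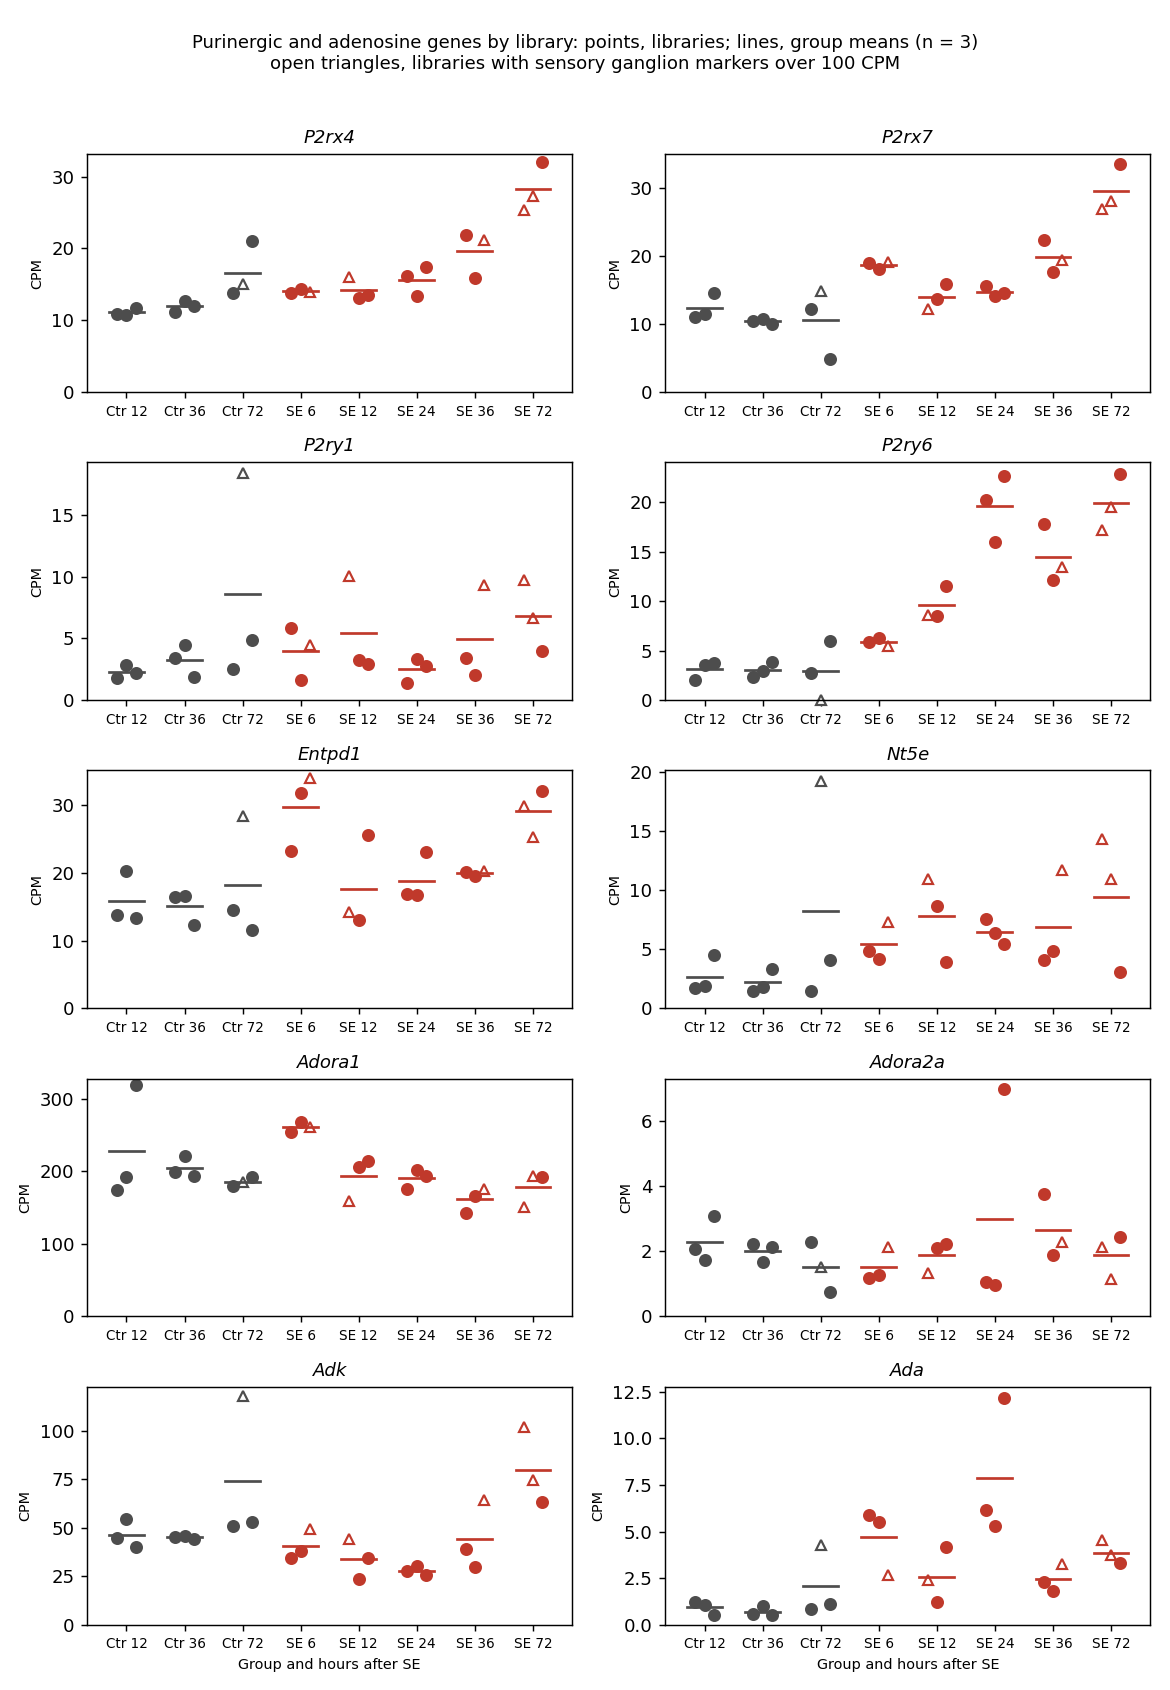
CPM of each of the 10 members (vertical, linear axis from 0, one panel per gene) in the 24 libraries, grouped as Ctr 12, 36 and 72 h (grey) and SE 6, 12, 24, 36 and 72 h (red), with group means as horizontal lines and the 6 libraries with sensory ganglion markers over 100 CPM as open triangles. P2ry6 climbs from a control median of 2.98 CPM to 17.2 to 22.9 CPM 72 h after SE, Adora1 stays between 142 and 319 CPM, and Ctr 72 h replicate 2 lies far above the other controls for P2ry1 (18.4 CPM), Nt5e (19.3 CPM) and Adk (118 CPM).

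A gene was called where edgeR's quasi-likelihood test gave a Benjamini-Hochberg adjusted p of at most 0.05 over all 18153 genes and a log2 fold change (log2FC) of at least 0.66 in size, and each log2FC is given with its standard error (s.e.). The model also held 1 factor of unwanted variation (RUVr). It was 0.797 in Ctr 72 h replicate 2, −0.383 and −0.374 in replicates 1 and 3 of that group, and at most 0.136 in size elsewhere. Model estimates that use Ctr 72 h can thus differ from group means. P2ry6 at 72 h was 12.5-fold higher by the model, with means of 19.9 CPM after SE and 2.9 CPM in Ctr 72 h. P2ry1 had a log2FC of 0.21 there (−0.35 without RUVr), with means of 6.8 and 8.61 CPM. Against controls of the same time, 3 of 10 members were called 12 h after SE, 5 at 36 h and 4 at 72 h, all of them higher. Over all tested genes 25.2% were called at 12 h (13.9% higher), 21.6% at 36 h (12.7% higher) and 19.4% at 72 h (15.2% higher). The 6 and 24 h groups have no controls of their own, so both were set against the same 9 control libraries of other times. There 4 members were higher at 6 h, where 22% of all genes were called and 15.8% were higher, and 3 were higher and 1 lower at 24 h, where 24.1% of all genes were called, 14.9% of all genes higher and 9.21% lower. In these 5 comparisons (12, 36, 72, 6 and 24 h), the median log2FC of the 10 members was 0.26, 0.60, 0.78, 0.54 and 0.33, and that of all tested genes was 0.01, 0.00, 0.10, 0.06 and 0.04. In the same order, the SE libraries lay wholly above their controls for 3, 6, 3, 1 and 2 members and wholly below for 0, 1, 0, 0 and 1. Over all genes, the groups did not overlap for 47.7%, 51.9%, 32.8%, 22.2% and 23.6%.

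**Figure D2:**
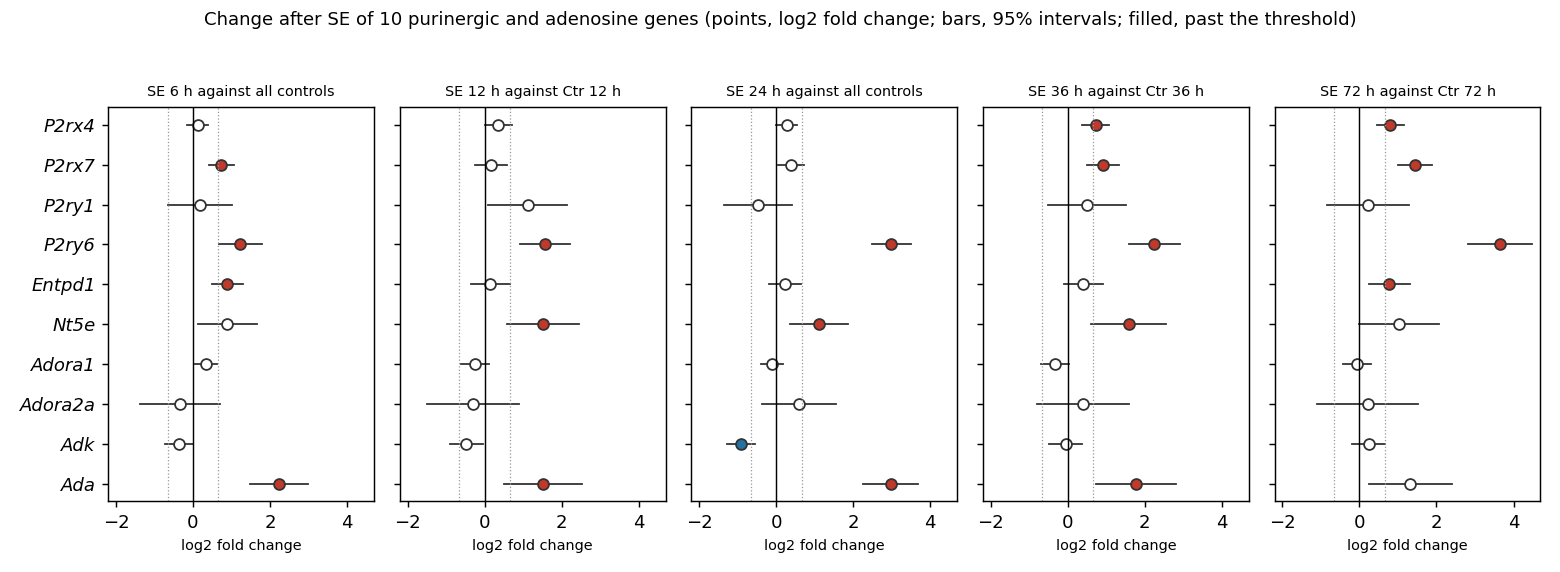
Log2FC of each member with its 95% interval against the matched controls at 12, 36 and 72 h and against all 9 controls at 6 and 24 h (edgeR). Dotted lines mark the threshold of 0.66 either way, and filled points passed the test (red higher, blue lower): P2ry6 did so in 5 of 5 comparisons, Ada in 4, P2rx7 and Nt5e in 3, P2rx4 and Entpd1 in 2, Adk in 1 (lower), and P2ry1, Adora1 and Adora2a in none.

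Among the receptors, P2ry6, a receptor for UDP that microglia use in phagocytosis, rose at every time. Its controls were at 2.08, 3.59 and 3.75 CPM (Ctr 12 h), 2.37, 2.98 and 3.86 CPM (Ctr 36 h), and 2.7, 0 and 6.00 CPM (Ctr 72 h). It stood at 5.91, 6.27 and 5.48 CPM 6 h after SE, 8.65, 8.52 and 11.6 CPM after 12 h, and 20.3, 15.9 and 22.7 CPM after 24 h. At 36 h it was at 17.8, 12.1 and 13.5 CPM, and at 72 h at 17.2, 19.6 and 22.9 CPM. Every SE library from 12 h on lay above all 9 controls, and at 6 h the SE libraries overlapped only Ctr 72 h replicate 3, the shallowest library, with 16 reads of this gene. At matched times the rise was 2.95-fold at 12 h (log2FC 1.56, s.e. 0.31, adjusted p = 0.000579), 4.73-fold at 36 h (2.24, s.e. 0.32, adjusted p = 1.91e-05) and 12.5-fold at 72 h (3.65, s.e. 0.40, adjusted p = 1.01e-06). The estimate at 72 h rested in part on Ctr 72 h replicate 2, which held 0 reads of P2ry6, and it was 2.37 (adjusted p = 2.75e-05) without that library and 2.62 (adjusted p = 0.000521) without the 6 ganglion-marker libraries. Against all controls P2ry6 was 2.35-fold higher at 6 h (log2FC 1.23, s.e. 0.26, adjusted p = 0.001) and 7.93-fold higher at 24 h (2.99, s.e. 0.24, adjusted p = 6.28e-09).

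P2rx7, a channel that opens at high ATP and is known for triggering the inflammasome, passed the test at 6, 36 and 72 h. At 12 and 24 h it was not called. Between SE times, the steps from 6 to 12 h (log2FC −0.43, adjusted p = 0.228) and from 24 to 36 h (0.43, adjusted p = 0.281) were not called. P2rx7 was at 11.1, 11.5 and 14.5 CPM in Ctr 12 h, 10.5, 10.8 and 10.0 CPM in Ctr 36 h, and 12.2, 14.8 and 4.87 CPM in Ctr 72 h. At 6 h after SE it was at 19, 18.1 and 19.1 CPM, above all 9 controls, and rose 1.67-fold (log2FC 0.74, s.e. 0.16, adjusted p = 0.00103). Without the shallow Ctr 72 h replicate 3 this log2FC was 0.64 (adjusted p = 0.000312), short of 0.66. Levels of 12.2, 13.7 and 15.9 CPM at 12 h overlapped the controls, and the difference of 0.17 had a 95% interval of −0.25 to 0.59 (adjusted p = 0.531). At 24 h the libraries were at 15.6, 14.1 and 14.5 CPM, which overlapped the controls (log2FC 0.39, 95% interval 0.05 to 0.73, adjusted p = 0.0609). The gene then rose 1.90-fold at 36 h (22.3, 17.7 and 19.4 CPM, log2FC 0.92, s.e. 0.20, adjusted p = 0.00145) and 2.72-fold at 72 h (26.9, 28.1 and 33.6 CPM, log2FC 1.44, s.e. 0.21, adjusted p = 3.39e-05). All SE libraries of both times lay above their controls, and at 72 h the change ranged from 1.36 to 1.81 over 16 other settings and passed the test in each of them.

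P2rx4, the neighbouring gene and a channel known from activated microglia, passed the test 36 and 72 h after SE. Its libraries were at 16.1, 13.1 and 13.5 CPM at 12 h, above the 10.8, 10.8 and 11.7 CPM of Ctr 12 h, with a log2FC of 0.36 (95% interval 0.02 to 0.70, adjusted p = 0.0886). Values at 6 h (13.8, 14.3 and 13.9 CPM) and 24 h (16.1, 13.4 and 17.4 CPM) overlapped the controls and were not called, with log2FC of 0.12 (95% interval −0.16 to 0.40, adjusted p = 0.513) and 0.27 (0.00 to 0.55, adjusted p = 0.103). At 36 h it was at 21.9, 15.9 and 21.2 CPM against 11.1, 12.7 and 12.0 CPM, a rise of 1.65-fold (log2FC 0.72, s.e. 0.16, adjusted p = 0.00193). Without SE 36 h replicate 1 that log2FC was 0.64 (adjusted p = 0.0127), short of 0.66. At 72 h it was at 25.3, 27.3 and 32.1 CPM against 13.8, 15 and 21 CPM and rose 1.74-fold (log2FC 0.80, s.e. 0.17, adjusted p = 0.00133). The 2 groups did not overlap at either time.

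P2ry1, an ADP receptor of neurons and glia, was not called at any time. Of the controls, 8 held 1.80 to 4.87 CPM and the ganglion-marker library Ctr 72 h replicate 2 held 18.4 CPM. At 12 h the libraries were at 10.0 CPM in the ganglion-marker library and 3.22 and 2.95 CPM in the others, above 1.80, 2.83 and 2.20 CPM in Ctr 12 h. The log2FC was 1.12 (95% interval 0.09 to 2.15, adjusted p = 0.0793). It passed without SE 12 h replicate 2 (1.40, adjusted p = 0.0476), a fit that kept the ganglion-marker library. It was 0.43 without the ganglion-marker libraries, and 0.30 (adjusted p = 0.666) with a score of those markers in place of the RUVr factor. The highest SE libraries at 36 and 72 h, at 9.35 and 9.76 CPM, also carried the ganglion markers. At 36 h the log2FC was 0.49 (95% interval −0.52 to 1.5, adjusted p = 0.483), and it was −0.28 without the ganglion-marker libraries. What part of the P2ry1 level came with those markers was not tested.

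Whether the effect of SE differed between times was tested as a difference of 2 matched comparisons. From 12 to 72 h it grew for P2rx7 by 1.27 (s.e. 0.29, adjusted p = 0.00417) and for P2ry6 by 2.08 (s.e. 0.52, adjusted p = 0.00775) on the log2 scale, 2 of 10 members, beside 18.6% of all genes called and 12.3% called higher. The P2rx7 difference passed in all 24 fits that left out 1 library and was 1.57 (adjusted p = 0.0166) without the 6 ganglion-marker libraries. The P2ry6 difference was 0.82 (adjusted p = 0.165) without Ctr 72 h replicate 2 and 1.00 (adjusted p = 0.221) without the 6 libraries. No member was called by edgeR from 12 to 36 h (3.38% of genes) or from 36 to 72 h (4.81%). At an unadjusted p under 0.05 there was 1 member in each. DESeq2 called 1 and 0, and limma-voom called none.

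Between successive SE times the threshold was a log2FC of 1. P2ry6 (1.05, adjusted p = 0.0306) and Ada (1.62, adjusted p = 0.028) were higher at 24 h than at 12 h, 2 of 10 members where 3.18% of all genes were called and 1.47% were higher. Neither step was stable: P2ry6 missed the threshold or the adjusted p in 5 of the fits that left out 1 library (without SE 12 h replicate 1, 2 or 3, or SE 24 h replicate 1 or 3, log2FC 0.92 to 1.19), and Ada in 3 (without SE 12 h replicate 1 or 2, or SE 24 h replicate 3, log2FC 1.16 to 1.59). No member was called from 6 to 12 h (1.34% of genes), from 24 to 36 h (0.529%) or from 36 to 72 h (4.13%) by edgeR, with 4, 3 and 4 members at an unadjusted p under 0.05 and 0, 1 and 0 called by DESeq2, and limma-voom called none. Among the controls no member was called at any pair of times by any of the 3 tools, with 0, 3 and 4 at an unadjusted p under 0.05 for 36 against 12 h, 72 against 36 h and 72 against 12 h, where 0%, 1.97% and 0.931% of all genes were called.

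P2rx4, P2rx7, P2ry6 and Entpd1 are known from microglia, so the level of microglial transcripts is given beside them. The summed level of 7 microglial markers (Cx3cr1, Tmem119, Csf1r, Aif1, Itgam, C1qa and Trem2) was 243 to 306 CPM in the controls. It was 168 to 174 CPM in SE 6 h, 189 to 243 CPM in SE 12 h, 346 to 463 CPM in SE 24 h, 492 to 551 CPM in SE 36 h and 1051 to 1516 CPM in SE 72 h. Against matched controls 0 of these markers rose and 1 fell at 12 h, while 5 rose at 36 h and 7 at 72 h. Against all controls 4 fell at 6 h and 3 rose at 24 h. In bulk tissue, more or fewer cells of a type and more or less RNA per cell cannot be told apart. As a share of the microglial sum, P2ry6 was 1.23% in Ctr 12 h, 1.098% in Ctr 36 h and 1.11% in Ctr 72 h, then 3.44% in SE 6 h, 4.49% in SE 12 h, 4.97% in SE 24 h, 2.74% in SE 36 h and 1.51% in SE 72 h. P2rx7 was 10.97% of it at 6 h and 2.25% at 72 h, and 3.71% to 4.85% in the control groups. P2rx4 was 8.19% at 6 h and 2.15% at 72 h, and 4.24% to 6.42% in the control groups. At 72 h P2rx4 and P2rx7 were higher as CPM, while their mean shares of the microglial markers were below those of Ctr 72 h, without overlap for P2rx4 (1.92% to 2.41% against 4.5% to 8.58%) and with overlap for P2rx7 (1.98% to 2.56% against 1.99% to 6.10%). Entpd1 was 17.4% of the sum at 6 h, 2.25% at 72 h and 5.34% to 7.07% in the control groups, and at 72 h its share of 1.78% to 2.84% lay below the 4.75% to 11.7% of Ctr 72 h without overlap. Of 8 listed markers of infiltrating leukocytes, 4 were in the tested table and their sum was 0.189 to 16.7 CPM in the controls and 0.709 to 23.9 CPM after SE. Their part in these results was not tested.

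**Figure D3:**
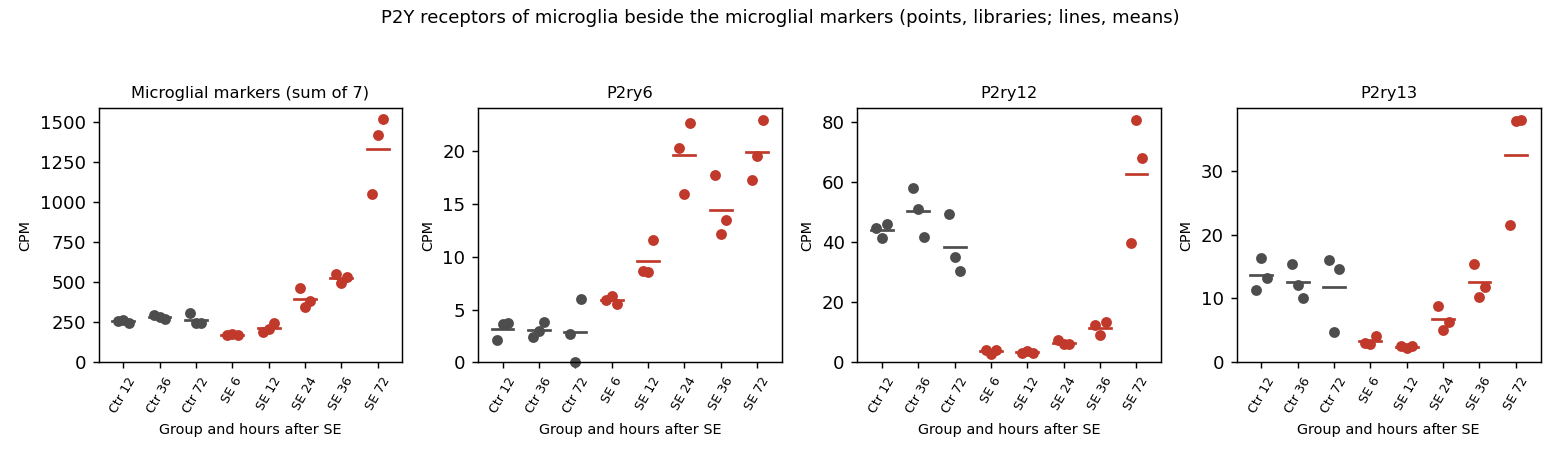
Summed CPM of 7 microglial markers and CPM of P2ry6, P2ry12 and P2ry13 (vertical, linear axes from 0, one panel each) in each library of the 8 groups, Ctr in grey and SE in red, with group means as horizontal lines. At 6 to 36 h P2ry12 drops to 2.84 to 13.4 CPM from 30.4 to 58.0 CPM in the controls. P2ry6 lies at 5.48 to 22.7 CPM at those times. At 72 h, where the markers reach 1051 to 1516 CPM, P2ry6 is at 17.2 to 22.9 CPM. P2ry12 is at 39.9 to 80.7 CPM there, which overlaps the controls.

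Entpd1, the enzyme that cuts ATP and ADP to AMP, was highest 6 h and 72 h after SE. At 6 h it was at 23.3, 31.8 and 34.1 CPM against a control median of 14.5 CPM (range 11.6 to 28.5) and rose 1.86-fold (log2FC 0.89, s.e. 0.19, adjusted p = 0.00106), with 1 control, Ctr 72 h replicate 2, inside the SE range. At 12, 24 and 36 h it was not called, with log2FC of 0.15 (95% interval −0.36 to 0.67, adjusted p = 0.651), 0.23 (−0.18 to 0.65, adjusted p = 0.375) and 0.40 (−0.11 to 0.91, adjusted p = 0.232). At 72 h it was at 29.9, 25.3 and 32.2 CPM against 14.5, 28.5 and 11.6 CPM and rose 1.70-fold (log2FC 0.77, s.e. 0.26, adjusted p = 0.0297). The groups overlapped through Ctr 72 h replicate 2, without which the log2FC was 1.13 (adjusted p = 0.00109). It was 1.26 without the 6 ganglion-marker libraries. With the marker score in place of the RUVr factor it was 0.65 (adjusted p = 0.0988), short of the call. Fits without the RUVr factor and with limma-voom lost the call too. The call was lost without Ctr 72 h replicate 1 (0.62, adjusted p = 0.144), Ctr 72 h replicate 3 (0.56, adjusted p = 0.155), SE 72 h replicate 1 (0.76, adjusted p = 0.0632) or SE 72 h replicate 3 (0.69, adjusted p = 0.08).

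Nt5e, the enzyme that makes adenosine from AMP, passed the test at 12, 24 and 36 h. At 12 and 36 h its highest SE library carried the ganglion markers. Its calls at 12, 24 and 36 h were each lost without the RUVr factor, which the fits with the marker score also left out. Of the controls, 8 held 1.44 to 4.49 CPM and Ctr 72 h replicate 2 held 19.3 CPM. At 12 h the SE libraries were at 11 CPM (the ganglion-marker library), 8.69 and 3.90 CPM against 1.70, 1.87 and 4.49 CPM, which overlap, with a 2.84-fold rise (log2FC 1.51, s.e. 0.45, adjusted p = 0.012). At 36 h they were at 4.08, 4.89 and 11.7 CPM (the last with the markers) against 1.44, 1.78 and 3.37 CPM, with no overlap and a 3.00-fold rise (1.58, s.e. 0.46, adjusted p = 0.0128). Without the 6 ganglion-marker libraries neither call held, at 1.14 (adjusted p = 0.0611) and 1.05 (adjusted p = 0.116), and with the marker score in the model they were 0.66 (adjusted p = 0.285) and 1.15 (adjusted p = 0.0734). Single libraries also decided them: at 12 h without Ctr 12 h replicate 1 (1.29, adjusted p = 0.0579), Ctr 12 h replicate 2 (1.32, adjusted p = 0.057) or SE 12 h replicate 1 (1.23, adjusted p = 0.0617), and at 36 h without Ctr 36 h replicate 1 (1.36, adjusted p = 0.0679), Ctr 36 h replicate 2 (1.45, adjusted p = 0.0615) or SE 36 h replicate 3 (1.04, adjusted p = 0.14).

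No SE 24 h library carried high ganglion markers, and there Nt5e was at 7.54, 6.36 and 5.47 CPM, above 8 of 9 controls. It was 2.17-fold higher than all controls (log2FC 1.12, s.e. 0.36, adjusted p = 0.0169), and 1.42 (adjusted p = 0.0045) on the log2 scale without the 6 libraries. The call was lost without Ctr 72 h replicate 1 (0.80, adjusted p = 0.0947) or SE 24 h replicate 1 (1.00, adjusted p = 0.0699), and without the RUVr factor. With the marker score in place of that factor the call at 24 h was kept (1.07, adjusted p = 0.0206). At 6 h (4.87, 4.21 and 7.30 CPM) and 72 h (14.3, 11 and 3.12 CPM) it missed the threshold, with log2FC of 0.89 (95% interval 0.14 to 1.65, adjusted p = 0.0555) and 1.03 (0.00 to 2.06, adjusted p = 0.129). At 72 h its highest libraries carried the markers, and the log2FC was 0.45 (adjusted p = 0.73) without the 6 libraries and 0.21 (adjusted p = 0.774) with the marker score. Leaving out 1 library moved it to as low as 0.09, when replicate 1 of Ctr 72 h was dropped, and as high as 1.97, when its replicate 2 was, and it passed in 1 of those 24 fits, without SE 72 h replicate 3 (1.51, adjusted p = 0.0249). At 6 h it passed without any 1 of Ctr 12 h replicate 3 (1.09, adjusted p = 0.0217), Ctr 36 h replicate 3 (1.03, adjusted p = 0.0314), Ctr 72 h replicate 2 (1.22, adjusted p = 0.0405) or Ctr 72 h replicate 3 (0.88, adjusted p = 0.0444).

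**Figure D4:**
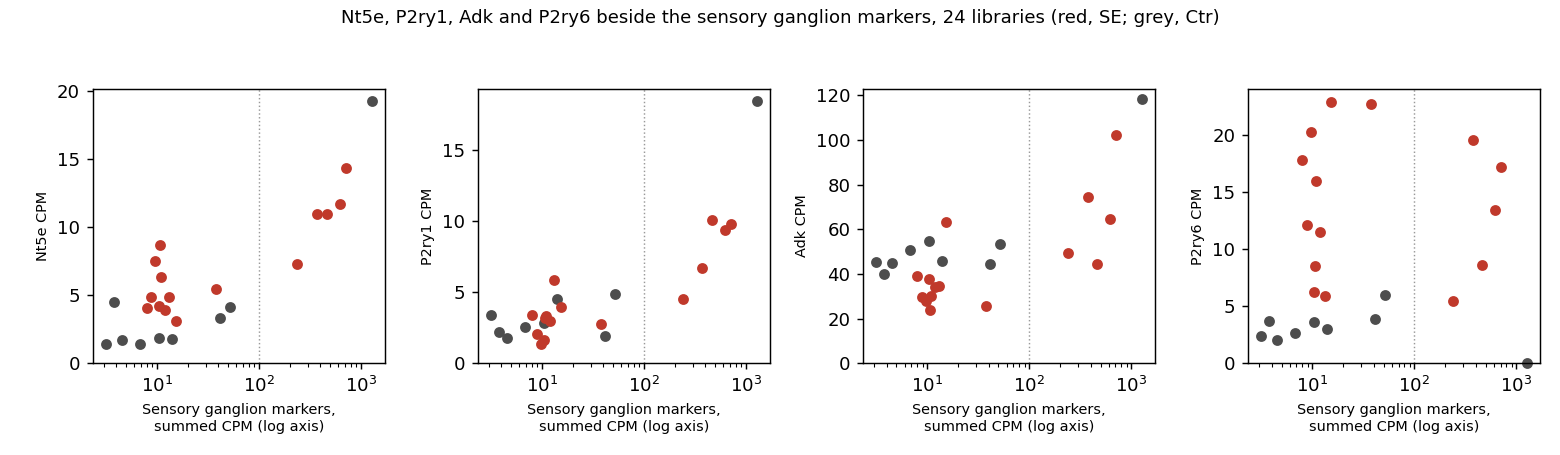
CPM of Nt5e, P2ry1, Adk and P2ry6 (vertical, linear axes from 0) against the summed CPM of 5 sensory ganglion markers (horizontal, log axis, dotted line at 100 CPM) in the 24 libraries, Ctr in grey and SE in red. P2ry1, Nt5e and Adk are higher towards the 6 libraries above 100 CPM (r of 0.82, 0.78 and 0.66), and P2ry6 is not (r of −0.09).

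Adora1, the A1 receptor of neurons, was not called at any time. Its controls were at 175, 193 and 319 CPM (Ctr 12 h), 199, 221 and 194 CPM (Ctr 36 h) and 180, 186 and 192 CPM (Ctr 72 h). At 6 h after SE it was at 254, 268 and 261 CPM, above 8 of 9 controls, with a log2FC of 0.34 (95% interval 0.06 to 0.63, adjusted p = 0.0518). At 36 h its 142, 166 and 176 CPM lay below all 3 matched controls, with a log2FC of −0.34 (95% interval −0.70 to 0.02, adjusted p = 0.139). At 12, 24 and 72 h the libraries overlapped the controls, with log2FC of −0.24 (95% interval −0.60 to 0.11, adjusted p = 0.272), −0.11 (−0.40 to 0.18, adjusted p = 0.565) and −0.06 (−0.42 to 0.30, adjusted p = 0.844). The negative sign at 12 h came from Ctr 12 h replicate 3, without which the difference was 0.07 (adjusted p = 0.715). None of these intervals reaches 1 in size on the log2 scale. A sum of 8 neuronal markers, given beside this neuronal receptor, was 10050 to 16080 CPM in the controls. It was 8853 to 11400 CPM at 6 h and 6792 to 8390 CPM from 12 h after SE on. The 16080 CPM was in Ctr 12 h replicate 3, which also held the highest Adora1 value. The part of this sum in the Adora1 values was not tested.

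Adora2a, a receptor that is abundant in the striatum, was too low in CA1 for a firm statement. It was at 0.750 to 3.09 CPM in the controls and 0.958 to 7.01 CPM after SE, from as few as 2 reads in a library. Its log2FC at matched times were −0.30 (95% interval −1.49 to 0.89, adjusted p = 0.708) at 12 h, 0.40 (−0.80 to 1.60, adjusted p = 0.643) at 36 h and 0.21 (−1.10 to 1.52, adjusted p = 0.846) at 72 h. A fall of 1 on the log2 scale lies within the intervals at 12 and 72 h and a rise of 1 within those at 36 and 72 h. The highest value, 7.01 CPM, was in SE 24 h replicate 3, and without that library the log2FC at 24 h turned from 0.60 (adjusted p = 0.314) to −0.98 (adjusted p = 0.087).

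Adk, adenosine kinase, was the member that fell. At 24 h it was at 27.8, 30.2 and 25.5 CPM, below all 9 controls (range 40.1 to 118, median 45.8 CPM), a fall of 1.88-fold (log2FC −0.91, s.e. 0.18, adjusted p = 0.000398) with no overlap. It was −0.78 (adjusted p = 0.000274) without the 6 ganglion-marker libraries, none of which is from 24 h. The call was lost with the ranges of the sample label numbers in place of the RUVr factor (−0.99, adjusted p = 0.0554). At 12 h it was at 44.3 CPM in the ganglion-marker library and 23.7 and 34.3 CPM in the others, against 44.9, 54.6 and 40.1 CPM. The log2FC there was −0.47 (95% interval −0.90 to −0.04, adjusted p = 0.0759) and passed, at −0.69 (adjusted p = 0.023), without SE 12 h replicate 1, the library with the markers. It also passed at 12 h without all 6 ganglion-marker libraries (−0.69, adjusted p = 0.00493) and with the marker score in the model (−0.82, adjusted p = 0.0018). In these 2 fits the Adk difference between the effects at 72 and 12 h was called too, at 0.99 (adjusted p = 0.0319) and 0.87 (adjusted p = 0.0222). At 6 h its 34.5, 37.9 and 49.6 CPM overlapped the controls (log2FC −0.36, 95% interval −0.72 to 0.00, adjusted p = 0.104). At 36 h the libraries were at 39.3, 29.6 and 64.5 CPM (log2FC −0.05, 95% interval −0.48 to 0.38, adjusted p = 0.884), and at 72 h at 102, 74.7 and 63.4 CPM against 50.7, 118 and 53.2 CPM (0.24, −0.20 to 0.67, adjusted p = 0.427). Among the SE libraries of both times the highest was one with high ganglion markers. The sum of 8 astrocyte markers, which marks the main cell type of this enzyme, was 4694 to 5710 CPM in the controls, 5482 to 7323 CPM at 24 h and 12500 to 14150 CPM at 72 h. At 24 h the markers moved in both directions: Gfap (log2FC 3.77), Aqp4 (1.83) and Sox9 (1.72) rose, while Slc1a2 (−1.09), Slc1a3 (−0.74) and Aldoc (−1.30) fell, as Adk did, and 2 were not called. Their part in the Adk values was not tested.

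Ada, adenosine deaminase, was barely expressed in the controls and rose at 4 of 5 times. Of the controls, 8 held 0.493 to 1.23 CPM, from 3 to 19 reads, and Ctr 72 h replicate 2 held 4.26 CPM. At 6 h after SE it was at 5.91, 5.49 and 2.68 CPM, 4.72-fold higher than all controls (log2FC 2.24, s.e. 0.36, adjusted p = 6.95e-05), and at 24 h at 6.16, 5.31 and 12.2 CPM, 7.85-fold higher (2.97, s.e. 0.35, adjusted p = 1.06e-06) with no overlap. At 12 h it was at 2.39, 1.23 and 4.14 CPM against 1.23, 1.04 and 0.503 CPM and rose 2.85-fold (1.51, s.e. 0.49, adjusted p = 0.0187), a call lost without Ctr 12 h replicate 3 (1.17, adjusted p = 0.0998) or SE 12 h replicate 3 (0.97, adjusted p = 0.125). At 36 h its 2.30, 1.81 and 3.25 CPM lay above 0.575, 0.992 and 0.493 CPM, a 3.42-fold rise (1.77, s.e. 0.50, adjusted p = 0.00959). At 72 h it was at 4.56, 3.72 and 3.31 CPM, overlapping Ctr 72 h (0.844, 4.26 and 1.13 CPM) through replicate 2. The log2FC at 72 h was 1.31 (95% interval 0.24 to 2.39, adjusted p = 0.0633), and 2.07 (adjusted p = 0.0182) without that library. The calls at 6, 12, 24 and 36 h held without the 6 ganglion-marker libraries, at 2.81, 1.41, 3.13 and 1.54. That at 12 h was lost with the marker score in place of the RUVr factor (1.25, adjusted p = 0.0905). It was also lost with limma-voom, with counts thinned to the smallest library, with the compared groups only, and with a replicate block without RUVr. With limma-voom the call at 36 h was lost too.

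Sample labels carry numbers that fall into 3 ranges, and these ranges are unevenly spread over the groups. Within one range, 2 SE 36 h libraries and all 3 Ctr 36 h libraries can be compared. There the SE libraries were higher by 2.24 for P2ry6, 1.46 for Ada, 1.07 for Nt5e, 0.92 for P2rx7 and 0.64 for P2rx4 on the log2 CPM scale, and the difference was −0.41 for both Adora1 and Adk. At 12 h the shared range holds 1 SE and 1 control library, and at 72 h no range holds both. All 3 SE 24 h libraries lie in a range that holds no control. At 24 and 72 h the range and SE therefore cannot be told apart from these groups alone. A fit over all 24 libraries held the ranges in place of the RUVr factor. It lost the calls for Nt5e at 12, 24 and 36 h (1.43, 1.09 and 1.5, adjusted p = 0.186, 0.359 and 0.155) and for Entpd1 at 72 h (0.30, adjusted p = 0.711). These were also lost when the RUVr factor was only left out, so the part of the ranges in them cannot be told. Calls were lost too for Entpd1 at 6 h (0.66, adjusted p = 0.0712), P2ry6 at 6 h (1.04, adjusted p = 0.113) and Adk at 24 h, which held without that factor.

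Of 43 other genes of nucleotide and adenosine signalling, 37 were tested. At 12 h 7 rose and 4 fell, at 36 h 9 rose and 5 fell, and at 72 h 12 rose and 1 fell, where 25.2%, 21.6% and 19.4% of all tested genes were called. Against all controls 9 rose and 5 fell at 6 h, and 6 rose and 8 fell at 24 h, where 22% and 24.1% of all genes were called. The count at 72 h was the least stable, with 6 genes called without the 6 ganglion-marker libraries and 4 with the label ranges in the model.

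The P2Y receptors of microglia for ADP fell at 12 h, where P2ry6 rose. P2ry12, known from the processes of resting microglia, was at 44.6, 41.5 and 46.2 CPM in Ctr 12 h and 3.23, 3.88 and 3.03 CPM in SE 12 h, a 12.9-fold fall (log2FC −3.69, s.e. 0.25, adjusted p = 7.58e-09). It was still 4.34-fold lower at 36 h (−2.12, adjusted p = 9.45e-07) and 11.7-fold lower than all controls at 6 h (−3.55, adjusted p = 1.25e-09). At 72 h it was at 39.9, 80.7 and 67.9 CPM against 49.3, 35.1 and 30.4 CPM, 1.61-fold higher with overlap (0.69, adjusted p = 0.0261), a call lost without Ctr 72 h replicate 2 or 3 or SE 72 h replicate 2 or 3 (0.47 to 0.63). P2ry13 fell 5.53-fold at 12 h (−2.47, adjusted p = 8.43e-07), had a log2FC of 0.00 (adjusted p = 0.994) at 36 h and rose 3.01-fold at 72 h (1.59, adjusted p = 8.87e-05). As a share of the microglial sum at 72 h, P2ry12 was 3.79% to 5.68% against 12.4% to 16.1% in Ctr 72 h, without overlap. The share of P2ry13 was 2.04% to 2.66% against 1.96% to 5.97%, with overlap. P2ry2, a receptor for ATP and UTP, rose 9.75-fold at 12 h (3.29, adjusted p = 6.41e-05) and 6.51-fold at 36 h (2.7, adjusted p = 0.000301), from 0.247 to 1.41 CPM in those controls to 3.15 to 8.29 CPM.

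The remaining adenosine receptors were low. Adora3 rose 3.03-fold at 12 h (log2FC 1.60, adjusted p = 0.0429) and 7.98-fold at 72 h (3.00, adjusted p = 0.0032), from 0 to 1.44 CPM in the controls to 0.796 to 1.04 CPM and 2.01 to 4.14 CPM. Of the Ctr 72 h libraries, 2 held 0 reads of it, and its log2FC at 72 h ranged from 1.63 to 8.61 when 1 library was left out, without losing the call, which was lost without the 6 ganglion-marker libraries (log2FC 2.02). The call at 12 h was lost in 9 of 24 such fits (1.46 to 1.95). Adora2b rose 2.87-fold at 72 h (1.52, adjusted p = 0.00446). Its Ctr 72 h libraries at 3.80, 0.512 and 1.5 CPM lay below the SE 72 h ones at 5.56, 4.48 and 4.68 CPM. Controls of other times were nearer to SE 72 h, at 3.29 to 4.64 CPM (Ctr 12 h) and 3.04 to 4.24 CPM (Ctr 36 h). The call was lost without Ctr 72 h replicate 2 (0.74, adjusted p = 0.182).

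Among enzymes of nucleotide breakdown, Ampd3, which deaminates AMP, was higher in every SE library than in every control. It was at 21.8 to 33.6 CPM in the 9 controls and 81.7 to 136 CPM in the 15 SE libraries, with rises of 4.03-fold at 12 h (log2FC 2.01, adjusted p = 1.5e-08), 3.47-fold at 36 h (1.80, adjusted p = 3.16e-08) and 3.52-fold at 72 h (1.82, adjusted p = 5.14e-08). Xdh, the xanthine dehydrogenase at the end of purine breakdown, rose 2.22-fold, 2.50-fold and 5.96-fold at these times (1.15, 1.32 and 2.57, adjusted p = 0.0456, 0.0282 and 0.000462). Its call at 12 h was lost in 15 of the 24 fits that left out 1 library (log2FC 0.92 to 1.28) and that at 36 h in 5 (1.13 to 1.48), namely without any 1 Ctr 36 h library or SE 36 h replicate 1 or 2. Pnp, which splits inosine, rose at 2 of the 3 matched times. Entpd2, an ectonucleotidase that prefers ATP, fell 3.28-fold at 12 h (−1.72, adjusted p = 0.000151). Panx2, a member of the pannexin channel family, fell 2.09-fold at 36 h (−1.06, adjusted p = 2.43e-05) and 1.70-fold at 72 h (−0.76, adjusted p = 0.000944). Acp3, a phosphatase that makes adenosine in sensory neurons, passed at 12 h (5.07, adjusted p = 0.0471) through 51.4 CPM in the ganglion-marker library, against 1.39 and 0.398 CPM in the other SE 12 h libraries, and it held 144 CPM in Ctr 72 h replicate 2.

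**Figure D5:**
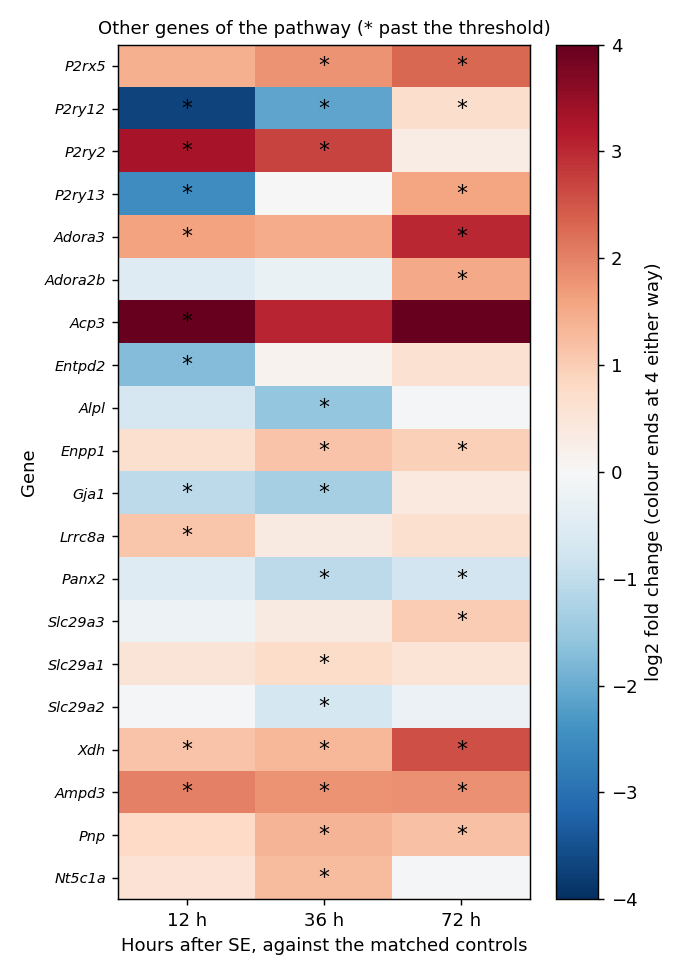
Log2FC against matched controls at 12, 36 and 72 h (edgeR) of the 20 named genes of the wider pathway, as colour from blue (lower) to red (higher) that ends at 4 either way, with an asterisk where the gene passed the test. P2ry12 goes from −3.69 at 12 h to 0.69 at 72 h, and Ampd3 lies at 2.01, 1.80 and 1.82.

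The genes most like each member in log2 CPM over the 24 libraries, out of 13717, are a description, since libraries of a group share their condition. For P2ry6 they were Sh3bp2, Mrps6 and Frrs1 (each r = 0.95), for P2rx4 Prdx1 (0.93), Iqgap3 and Htra3 (0.91 each), and for P2rx7 Tgfbr2 (0.93), Espl1 (0.91) and Wasf2 (0.90). For Nt5e they were Cast (0.91), Nefh (0.90) and Ret (0.89), and for Adk Nol3 (0.93), Frmpd1 (0.92) and Snapin (0.92). For P2ry1 they were Bcam (0.89), Cd24a and Utrn (0.88 each), for Entpd1 Sun2 (0.88), Tmem47 (0.82) and Cdc42ep4 (0.80), and for Ada Rell1 (0.90), Tgm2 (0.87) and Igsf3 (0.86). For Adora1, Chrm3 (0.85) and Tmem178b (0.76) were among the 3 closest, and the closest genes were less close for Adora2a (Zfp959 0.65, Lclat1 and Txlng 0.62 each). Among the members themselves, the closest pairs were P2rx7 with Entpd1 (r = 0.74), P2ry1 with Adk (0.69) and Entpd1 with Ada (0.65).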

How the data were processed

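Polyadenylated RNA of CA1 was sequenced as paired ends with a kit that does not mark strand, in 24 libraries of 8 groups. Per the submitters' processing notes and methods, the authors used Trim Galore 0.6.6, STAR 2.7.8a, SAMtools 1.10 and HTSeq 0.13.5 on GRCm39, and they deposited 1 table of raw read counts per gene. No column of the table was left unused. Of 18647 identifiers, 18552 were matched to the GENCODE annotation given for GRCm39, which is a later release than the authors' one. The merged exon lengths and the overlaps come from that annotation.

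Counts were tested in R 4.3.3 with edgeR 4.0.16: genes with too few counts for their group were filtered, libraries were scaled by TMM, and a quasi-likelihood model held the 8 groups and 1 factor of unwanted variation estimated from residuals (RUVr) over all 24 libraries. Adjusted p-values are Benjamini-Hochberg over 18153 genes, with a log2 fold change of at least 0.66 against controls and 1 between SE times, and intervals are at 95%. CPM are counts scaled to library totals with the TMM factors. Log2 CPM for correlations used a prior count of 2. Named genes were all 10 members, and per role at most 4 other pathway genes called at a matched time whose mean log2 CPM reached 0, with P2ry12, P2ry13, Adora2b and Adora3 always named, and the 3 genes most like each member. The members and all lists were chosen with earlier results of these data known, and some listed marker genes are not reported here and were left out of the sums and counts. The alternatives were DESeq2 1.42.0, limma-voom (limma 3.58.1), other scalings and filters, other thresholds, thinning to 2663936 counts, label ranges, a replicate block and leaving out each library, and, chosen after seeing the data, a sensory ganglion marker score and leaving out the libraries over 100 CPM of those markers. The label ranges and the marker score each stood in the model in place of the RUVr factor. The fits were tested on simulated data.

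Replicate numbers in the labels do not state a shared animal, day or batch. Deviations of same-numbered libraries from their group means correlated at −0.30 to 0.391, so the numbers were not taken to pair the samples. Depth limits the members below about 5 CPM most, where a library can hold fewer than 20 reads.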

Additional observations from a re-analysis of the deposited data

Results flagged for a closer look

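Among the 9 control libraries, single libraries lay far from the rest for 7 members, by a rule that chance meets in about 1 in 20 groups. Ctr 72 h replicate 2, the control library with the highest sensory ganglion markers, was the highest for P2ry1 (18.4 CPM), Nt5e (19.3 CPM), Adk (118 CPM) and Ada (4.26 CPM), where the next controls were at 4.87, 4.49, 54.6 and 1.23 CPM. Ctr 72 h replicate 3, the library with the fewest counts, was the highest for P2rx4 (21 CPM, next 15 CPM) and the lowest for P2rx7 (4.87 CPM, next 10.0 CPM). Ctr 12 h replicate 3 was the highest for Adora1 (319 CPM, next 221 CPM).

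The effect of SE differed between 72 h and 12 h for P2rx7, by 1.27 on the log2 scale (adjusted p = 0.00417, edgeR), and for P2ry6, by 2.08 (adjusted p = 0.00775), each as a test of the difference itself. The P2ry6 difference did not pass without Ctr 72 h replicate 2 (0.82, adjusted p = 0.165), without the 6 ganglion-marker libraries (1.00, adjusted p = 0.221) or with the marker score in the model (1.39, adjusted p = 0.153).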

How the results depend on the processing

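Of the values for single genes, 1235 kept their direction and side of the threshold under the alternatives listed first, 92 missed the threshold, 5 newly passed it and 10 changed sign; under the 2 alternatives chosen after seeing the data these counts were 158, 23, 4 and 7. The causes were not tested.

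Counts of members called that moved were as follows. With a threshold of 1 in place of 0.66 (and 0.66 in place of 1 between SE times), 3 were called at 36 h, 2 at 72 h, 2 at 6 h and 1 for SE 72 h against SE 36 h, where no threshold gave 2. The label range in place of the RUVr factor gave 2 at 6 h and 2 at 24 h. It gave 1 for the difference of 72 and 12 h and 0 for SE 24 h against SE 12 h. Without the RUVr factor the last 2 were 1 and 0, and with thinned counts 1 and 1. SE 24 h against SE 12 h gave 1 with the marker score, without the ganglion-marker libraries and with the compared groups only. DESeq2 gave 1 for the difference of 36 and 12 h and 1 for SE 36 h against SE 24 h, which was also 1 without the ganglion-marker libraries. Ctr 72 h against Ctr 36 h gave 1 with the compared groups only.

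With the replicate number as a block beside the RUVr factor no count of members moved by over 1.5 times. With the block and no RUVr factor 1 member was called at 12 h, 1 for the difference of 72 and 12 h and 0 for SE 24 h against SE 12 h, and 7 pathway genes at 12 h. Of 24 libraries, 8 correlated best with a library of their own number.

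Pathway genes called moved to 7 at 12 h without the RUVr factor, and at 72 h to 4 with the label range, 7 with thinned counts, 6 without the ganglion-marker libraries and 8 with the compared groups only.

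Leaving out 1 library at a time, the members called against controls ranged from 2 to 4 (12 h), 4 to 5 (36 h), 3 to 5 (72 h), 4 to 5 (6 h) and 3 to 4 (24 h). They ranged from 2 to 3 for the difference of 72 and 12 h, 0 to 1 for those of 36 and 12 h and of 72 and 36 h, and 0 to 2 for SE 24 h against SE 12 h. They ranged from 0 to 1 for SE 12 h against SE 6 h, SE 36 h against SE 24 h, SE 72 h against SE 36 h and Ctr 72 h against Ctr 12 h, and from 0 to 2 for Ctr 72 h against Ctr 36 h. Pathway genes ranged from 8 to 13, 10 to 16 and 10 to 14 at 12, 36 and 72 h.

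Changes of sign on the log2 scale all fell on differences that had not been called. P2ry1 was −0.14 (marker score) and −0.28 (without the ganglion-marker libraries) at 36 h, −0.11 (marker score) at 6 h, and at 72 h −0.35 (no RUVr factor), −0.33 (block without it), −0.19 (thinned) and −0.30 (marker score). Adk at 36 h was 0.07 with library-size scaling and 0.13 thinned. Adora1 at 72 h was 0.21 with the label range and 0.05 without the ganglion-marker libraries, where Adora2a at 12 h was 0.00 and the Ada difference of 72 and 12 h was 0.43. Thinning gave −0.15 for P2rx4 and 0.22 for Adora2a at 6 h, the label range −0.10 for Entpd1 at 24 h, and limma-voom −0.12 for Adora2a at 24 h.

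Leaving out 1 library changed signs within these ranges: P2ry1 −0.17 to 0.56 (6 h), −0.27 to 0.88 (36 h) and −0.47 to 0.94 (72 h), Entpd1 −0.21 to 0.41 (12 h), and Adk −0.40 to 0.18 (36 h) and −0.01 to 0.63 (72 h). They were −0.41 to 0.07 (12 h) and −0.11 to 0.05 (72 h) for Adora1, and −0.98 to 1.05 (24 h) and −0.01 to 0.72 (72 h) for Adora2a. For the difference of 72 and 12 h they were −0.80 to 0.61 for Ada, −0.13 to 0.35 for Adora1 and −1.42 to 0.51 for Nt5e. Levels in CPM in place of CPM per kb stand beside each member above and were not rerun as a separate setting.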

Other observations

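Ctr 72 h replicate 2, which held 0 reads of P2ry6 in 5793721 counts, held 18.1 CPM of P2ry2, against 0.247 to 1.41 CPM in the other 8 controls. In the other control libraries P2ry6 had 16 to 97 reads.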
